A study of Arabidopsis thaliana with 18 samples.

Results

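The comparison described here set the bbx18 bbx23 double mutant of Arabidopsis thaliana against the wild type at 29 °C, with 3 RNA sequencing libraries of each, 6 of the 18 libraries of the study. The 6 libraries were chosen by their genotype and temperature labels alone. All 18 came from whole seedlings of the Columbia strain on day 7, at 22 °C or 29 °C, in 3 genotypes: wild type, BBX18-/-BBX23-/- and PIF4-/-. The sources used here give neither the mutant alleles nor the hours spent at 29 °C nor the hour of harvest. Since no label calls the replicates separate cultures, a p-value covers only the spread among these libraries, which may be technical. In whole seedlings, fewer cells of a type and less RNA per cell cannot be told apart.

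B-box proteins are zinc finger factors that mostly act through other transcription factors, and many of them work in light signalling. BBX18 and BBX23 are known as positive factors in the elongation of the hypocotyl, the seedling stem, in the warm. PIF4 is a basic helix-loop-helix transcription factor at the centre of that response: it turns on auxin synthesis and auxin response genes, and ELF3, part of the evening complex of the circadian clock, holds it back. The comparison therefore asks which transcripts of warm seedlings depend on the B-box pair. The pif4 libraries at 29 °C give the same measurement in seedlings labelled PIF4-/-.

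Expression was measured as FPKM, the fragments of a gene scaled by its length and by the fragments of the library. A gene was tested if it reached 1 FPKM in at least 3 of the 18 libraries, which left 19116 genes. Differences are on the scale of log2(FPKM + 1), bbx18 bbx23 minus the other group, which understates the change of weakly expressed genes. Each is given with its standard error (SE) from a limma fit to all 18 libraries, and a gene is said to have risen or fallen where its Benjamini-Hochberg adjusted p was under 0.05. Low values that 2 libraries share in whole-read steps put the relative depth of the 6 libraries between 1 and 1.22. That is a rough estimate: the commonest ratio, taken as the depth, held 3.35% to 13.2% of the low-valued genes used.

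Very few transcripts separated the genotypes at 29 °C. Of the 19116 genes, 3 rose in bbx18 bbx23 (0.0157%) and 0 fell: AT2G41640, the actin-related protein gene ARP9 and the non-coding RNA AT4G04223. The fit gave 211 genes an unadjusted p under 0.05 (1.1%), 149 higher (0.779%) and 62 lower (0.324%). A second fit treated libraries of the same replicate number and temperature as a block, because the wild-type and bbx18 bbx23 libraries of the same number deviated together at 29 °C. It kept those 3 and added AT3G56210, for 4 risen genes (0.0209%) and 0 fallen, with 678 at an unadjusted p under 0.05 (3.55%). The median difference over all genes was 0.02, and 15 genes were at least 1 log2 apart in the group means, 10 higher and 5 lower.

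Libraries of different replicate numbers lay further apart than same-number libraries of the 2 genotypes. Between a bbx18 bbx23 library and the wild-type library of the same number, the median absolute difference over genes was 0.171, 0.162 and 0.143 log2 for replicates 1, 2 and 3. Between the wild-type libraries themselves it was 0.234 to 0.271, and between the bbx18 bbx23 libraries 0.172 to 0.240. In the same-number pairs 103, 78 and 166 genes differed by more than 1 log2, against 631 to 1002 between wild-type and 250 to 962 between bbx18 bbx23 libraries. The closest libraries of different numbers, bbx18 bbx23 replicates 2 and 3, were about as near in the median (0.172 log2) as the replicate 1 pair. The median SE of a gene was 0.178 without the block and 0.142 with it.

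**Figure D1:**
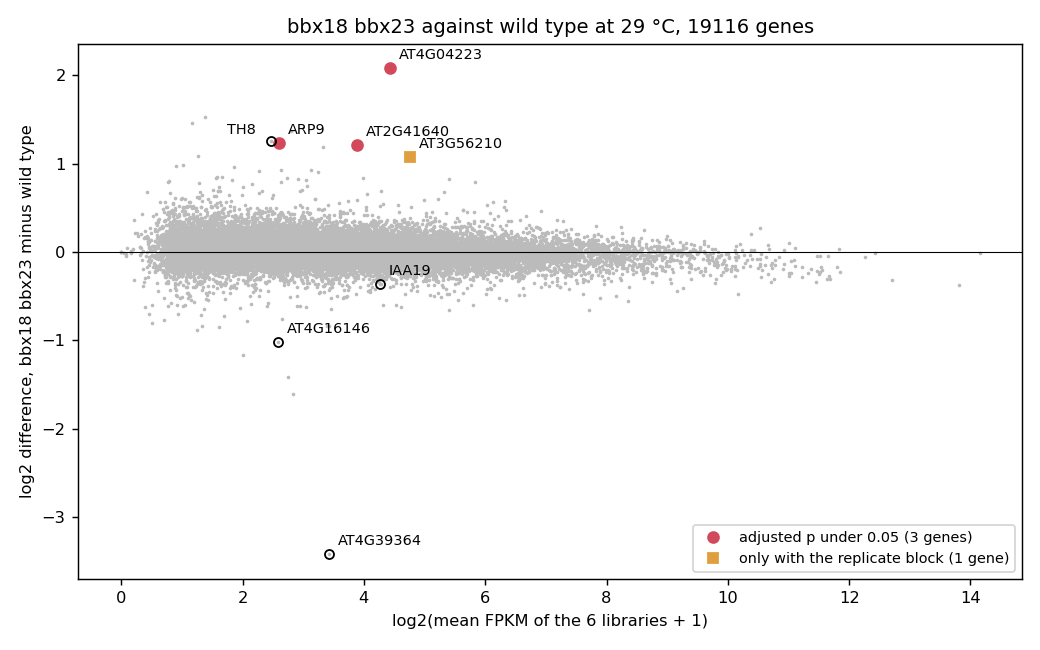
Difference of log2(FPKM + 1) between bbx18 bbx23 and the wild type at 29 °C (vertical) against mean expression (horizontal, log2) for 19116 genes, each a dot. The 3 risen genes are red, the gene that passed only with the replicate block is orange, and open circles mark named genes that did not pass. Most genes lie near 0, and no gene below the line passed the test.

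The targeted genes were the first check of the labels. BBX18 stood at 9.43, 64.3 and 29.9 FPKM in wild-type replicates 1, 2 and 3 at 29 °C, and at 7.12, 51.3 and 26.1 FPKM in bbx18 bbx23. The level followed the replicate number in both genotypes, and bbx18 bbx23 was the lower member of each pair, by 0.36, 0.32 and 0.19 log2. The groups overlapped widely, and the difference was -0.29 ± 0.71 (SE, n = 3 per group; adjusted p = 1). At 22 °C the wild type had 30.4, 28.5 and 27.7 FPKM and bbx18 bbx23 20.9, 16.6 and 16.4 FPKM, with no overlap, a difference of -0.66 (adjusted p = 1). The SE was 0.71 log2 there too, because the fit pools a gene's spread over all 18 libraries, including those at 29 °C. The p-value at 22 °C thus does not measure the spread at 22 °C alone, where standard deviations were 1.37 FPKM (wild type) and 2.57 FPKM (bbx18 bbx23). BBX18 transcript was thus present in every bbx18 bbx23 library. Which part of the gene the mutation alters was not analysed here, so these levels do not check the label. BBX23 was listed at 0 in all 18 libraries, wild type included, and checks nothing. Of the genes that flank both loci in the reference annotation, 23 near BBX18 and 21 near BBX23 were tested, and 0 were called. Of all genes 0.0157% were called, so sets this small would rarely hold a call. Near BBX18, 0 were higher and 0 lower in 3 of 3 pairs. Near BBX23, 19.0% were higher and 4.76% lower (all genes, 13.7% and 9.74%), and 4.76% were lower without overlap (all genes, 1.62%).

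AT2G41640 encodes a glycosyltransferase of family 61, a family whose known members add sugars to cell wall polymers and glycoproteins. Wild-type libraries held 7.88, 7.20 and 8.77 FPKM at 29 °C, and bbx18 bbx23 libraries 19.7, 20.5 and 18.7 FPKM. Every bbx18 bbx23 library was well above every wild-type library. The gene rose by 1.21 ± 0.13 log2 (SE, adjusted p = 0.00173, and 0.0102 with the block). The call held without any 1 of the 6 libraries (adjusted p from 0.0032 to 0.0229) and without replicate 3 of both genotypes (adjusted p = 0.0114). It was lost without replicate 1 of both genotypes (adjusted p = 0.112) and without replicate 2 (adjusted p = 0.0897), with differences of 1.201 and 1.119 log2. The pif4 libraries at 29 °C held 9.52, 8.08 and 10.1 FPKM, in the range of the wild type, and bbx18 bbx23 exceeded them by 1.02 log2 (adjusted p = 0.00207).

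ARP9 (AT5G43500) encodes an actin-related protein, of the family whose nuclear members sit in chromatin remodelling complexes. Its wild-type values at 29 °C were 2.22, 2.31 and 3.37 FPKM, and those of bbx18 bbx23 were 7.39, 8.03 and 7.04 FPKM. Again no library overlapped. ARP9 rose by 1.24 ± 0.16 log2 (SE, adjusted p = 0.00593, and 0.0250 with the block). The call held without any 1 of the 6 libraries (adjusted p from 0.0032 to 0.0469) and without replicate 3 of both genotypes (adjusted p = 0.0114). Leaving out replicate 1 or 2 of both genotypes gave 1.17 or 1.13 log2 with an adjusted p of 0.225 or 0.321. In pif4 it had 3.16, 2.57 and 2.25 FPKM, and bbx18 bbx23 was 1.22 log2 above these (adjusted p = 0.00207).

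AT4G04223 is annotated as a non-coding RNA without a known role. Its wild-type libraries at 29 °C gave 8.76, 9.09 and 4.38 FPKM and its bbx18 bbx23 libraries 34.5, 26.8 and 39.5 FPKM. The groups did not overlap, and the difference of 2.08 ± 0.29 log2 (SE, adjusted p = 0.0120, and 0.0142 with the block) was the widest of the called genes. The call was lost without bbx18 bbx23 replicate 1 (adjusted p = 0.0935), without its replicate 3 (adjusted p = 0.0860) or without wild-type replicate 3 (adjusted p = 0.0703). It was also lost without replicate 1, 2 or 3 of both genotypes (adjusted p = 0.225, 0.0897 or 0.426). It held without bbx18 bbx23 replicate 2, wild-type replicate 1 or wild-type replicate 2 (adjusted p = 0.0379, 0.0455 or 0.0324). Unlike the genes above, AT4G04223 was also high in pif4, with 48.5, 58.4 and 69.0 FPKM at 29 °C, 2.87 log2 over the wild type (adjusted p = 7.21e-05, in a comparison that called 26 genes, 0.136%). The bbx18 bbx23 and pif4 values did not overlap, with bbx18 bbx23 0.79 log2 lower (adjusted p = 1).

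AT3G56210, which encodes a protein with ARM repeats, rose only in the fit with the block. It had 14.5, 19.2 and 15.9 FPKM in the wild type, 35.4, 37.4 and 34.2 FPKM in bbx18 bbx23 and 35.5, 41.8 and 50.6 FPKM in pif4, all at 29 °C. Both mutants lay above the wild type in every library. The difference between bbx18 bbx23 and the wild type was 1.07 ± 0.19 log2 (SE), with an adjusted p of 0.158 without the block and 0.0142 with it, and pif4 was 1.31 log2 over the wild type (adjusted p = 0.00615).

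AT4G04223 and AT3G56210 cannot be counted as separate results. In the TAIR10.1 reference from RefSeq, the AT4G04223 transcript, of 549 bases on chromosome 4, matches a stretch of the AT3G56210 transcript, on chromosome 3, in 347 of 350 aligned positions (99.1% identity). The longest run without a difference is 189 bases, so a short read from it fits both genes, and the sources used here do not say how such reads were assigned. The 30 bases around 1 of the 3 differences show how alike the copies are, read 5′ to 3′ along the transcripts, with the base that differs in capitals.
AT4G04223: ctggttgaatttgatGgcaagttaaagtct
AT3G56210: ctggttgaatttgatTgcaagttaaagtct
Both genes were higher in both mutants than in the wild type, and from which copy the added reads came was not tested.

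**Figure D2:**
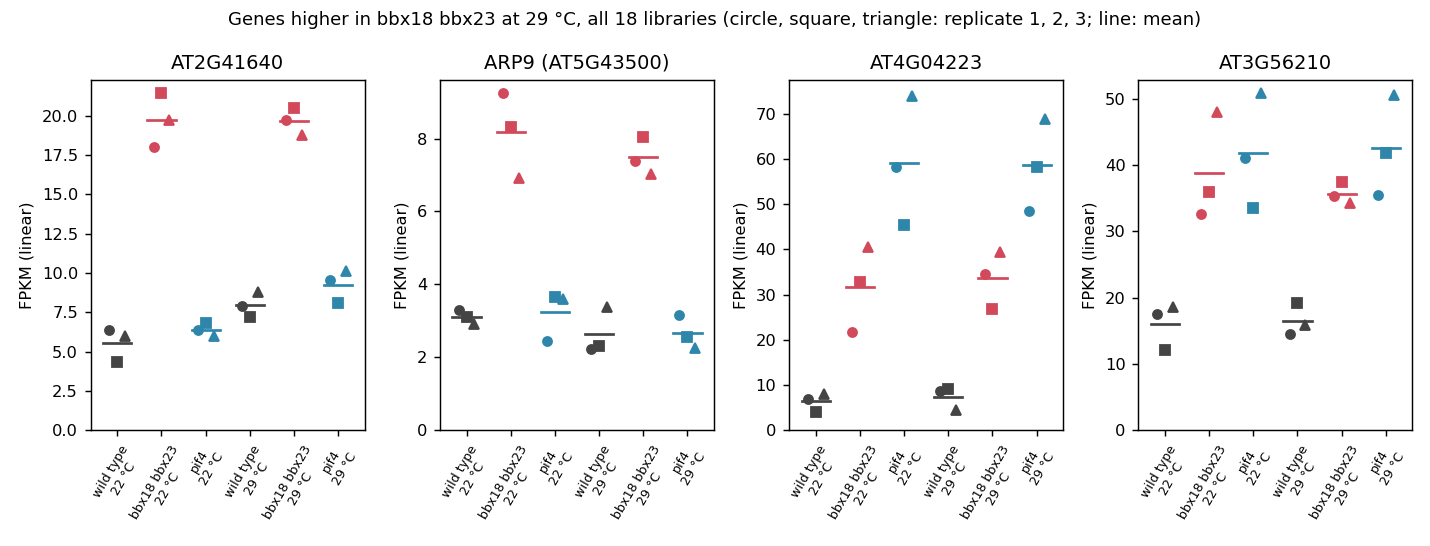
FPKM (linear axis from 0) of the 4 genes higher in bbx18 bbx23 in all 18 libraries, by genotype and temperature, with a point per library shaped by replicate number and a line at the group mean. AT2G41640 and ARP9 are high in bbx18 bbx23 alone, at 22 °C as at 29 °C, while AT4G04223 and AT3G56210 are high in pif4 too.

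The same genes stood out at 22 °C, in libraries that share none with the comparison at 29 °C but enter the same fit. There, 5 genes rose in bbx18 bbx23 (0.0262%) and 0 fell (limma, 249 genes or 1.3% at an unadjusted p under 0.05), and all 3 genes called at 29 °C were among them. AT2G41640 had 6.36, 4.32 and 6.01 FPKM in wild-type libraries at 22 °C and 18.0, 21.4 and 19.7 FPKM in bbx18 bbx23, a rise of 1.67 log2 (adjusted p = 1.76e-05). ARP9 rose by 1.16 log2 at 22 °C (adjusted p = 0.00907), from 3.29, 3.096 and 2.91 FPKM to 9.26, 8.33 and 6.92 FPKM. AT4G04223 rose by 2.15 log2 (adjusted p = 0.00907) and AT3G56210 by 1.23 log2 (adjusted p = 0.0341). In each of the 4 genes the mutant libraries lay above the wild-type ones at both temperatures. The fit shares its estimate of a gene's spread over all libraries, so the p-values at 22 °C and 29 °C are not independent. With only the groups compared in the fit, fewer genes were called at each temperature.

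No gene passed the test for a difference between the temperatures. The difference between the effect at 29 °C and the effect at 22 °C passed the test for 0 genes with limma, with or without the block, and 133 genes had an unadjusted p under 0.05 (0.696%), or 350 with the block (1.83%). For AT2G41640 that difference was -0.46, for ARP9 0.08, for AT4G04223 -0.08 and for AT3G56210 -0.16 log2, each with an adjusted p of 1.

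Below the threshold, the genes of smallest p with the same sign in 3 of 3 pairs give the next tier, and none of them passed. Background for such counts is broad: 2623 genes were higher in 3 of 3 pairs (13.7%) and 1861 lower (9.74%), while 536 genes had bbx18 bbx23 libraries all above the wild-type ones (2.8%) and 310 all below (1.62%). Only 7 genes were at least 1 log2 higher without overlap (0.0366%), and 3 at least 1 log2 lower (0.0157%).

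Among the lower genes, ACC1, the cytosolic acetyl-CoA carboxylase that makes malonyl-CoA for very long fatty acids, came nearest to the threshold in the fit with the block, but not in the fit without it, where AT4G39364 and AT4G16146 (described next) had lower adjusted p-values. ACC1 had 28.6, 24.7 and 27.5 FPKM in wild-type libraries at 29 °C and 20.01, 14.9 and 17.5 FPKM in bbx18 bbx23. The groups did not overlap, and the difference was -0.60 ± 0.18 log2 (SE, adjusted p = 1, and 0.0525 with the block). ACC1 has a copy, AT1G36180, 90.07% identical to it in the reference, so its reads are uncertain too. CCL, a transcript named after its likeness to the clock-controlled gene CCR, fell short in the same way, with 336, 159 and 264 FPKM against 235, 102 and 150 FPKM, lower in each pair but overlapping as groups (-0.65 ± 0.29 log2, SE, adjusted p = 1, and 0.0709 with the block). The CCL difference moved to -0.36 log2 without bbx18 bbx23 replicate 2 and -0.41 without wild-type replicate 1, and to -0.96 without bbx18 bbx23 replicate 1 or wild-type replicate 2. Each of these fits breaks a same-number pair. Without replicate 1, 2 or 3 of both genotypes, the CCL difference was -0.72, -0.66 or -0.57 log2.

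The small nucleolar RNA AT4G39364, of a class that guides changes to ribosomal RNA, had 21.3, 29.2 and 5.21 FPKM in the wild type and 0, 0 and 2.42 FPKM in bbx18 bbx23 at 29 °C. It was the lowest of all genes in its difference, at -3.42 log2, without passing (adjusted p = 0.113). At 22 °C its difference was 0.16 log2, and 3 close copies in the reference make its values uncertain. AT4G16146, which encodes a protein related to the phosphoprotein ARPP19 of animals, had 6.74, 6.08 and 8.17 FPKM in the wild type and 1.85, 3.56 and 3.63 FPKM in bbx18 bbx23. That is a separation without overlap of -1.02 ± 0.19 log2 (SE, adjusted p = 0.184). In pif4 it had 8.51, 9.97 and 7.71 FPKM, and bbx18 bbx23 fell by 1.31 log2 against pif4 (adjusted p = 0.00711).

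COR413IM1, a cold-regulated protein of the chloroplast inner envelope, was also lower, with 45.1, 51.0 and 55.4 FPKM in the wild type and 28.4, 28.2 and 39.8 FPKM in bbx18 bbx23. No library overlapped, at -0.65 ± 0.18 log2 (SE, adjusted p = 1). PHYA, the far-red light receptor phytochrome A, was lower in each pair but overlapped as a group, at -0.31 log2 (adjusted p = 1). The other 4 genes of this tier, AT4G32340, CEF, AT1G73120 and AT2G06002, lay between -0.78 and -0.37 log2.

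On the higher side, the uncharacterized gene AT2G13550 had 3.46, 3.09 and 3.12 FPKM in wild-type libraries at 29 °C and 7.81, 8.53 and 5.17 FPKM in bbx18 bbx23. Its groups did not overlap, at 0.93 ± 0.17 log2 (SE, adjusted p = 0.177). The pif4 libraries held 2.78, 3.45 and 4.30 FPKM, near the wild type. AT2G13550 overlaps AT2G13555, annotated on the other strand, and the sources used here do not say if counting kept strands apart. TH8, a thioredoxin, had 3.06, 2.69 and 1.06 FPKM against 9.41, 6.50 and 4.33 FPKM, at 1.25 ± 0.46 log2 (SE, adjusted p = 1), and pif4 was as high with 8.92, 6.22 and 3.80 FPKM. AT4G19430, AT1G47395, UP6 and AT5G64850, the remaining 4, lay between 0.45 and 0.83 log2.

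The regulators of warm growth showed small differences, none of which passed. Of 20 genes tested, 8 were lower in 3 of 3 pairs (40%, all genes 9.74%) and 1 higher (5%, all genes 13.7%), 4 were lower without overlap (20%, all genes 1.62%), and the median was -0.10 log2. PIF4 itself had 19.4, 16.1 and 16.8 FPKM in wild-type libraries at 29 °C and 15.1, 15.6 and 14.4 FPKM in bbx18 bbx23. The groups just missed each other, at -0.20 ± 0.13 log2 (SE, adjusted p = 1), with a 95% interval from -0.48 to 0.09. DET1, a repressor of light responses, PHYB, the red light receptor that also senses temperature, and ARF6, an auxin response factor that acts with PIF4, were the other 3 without overlap, at -0.18, -0.12 and -0.13 log2. HY5, a factor that opposes PIF4 in the light, had 23.48, 90.5 and 43.4 FPKM against 25.4, 123.1 and 62.5 FPKM, higher in each pair but with replicates further apart than the genotypes (0.35 ± 0.56 log2, SE, adjusted p = 1). ELF3 stood at -0.09 log2.

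Auxin synthesis genes had a median near that of all genes. Of 11 tested, 0 were called, 3 were higher and 3 lower in 3 of 3 pairs (all genes, 13.7% and 9.74%), and the median was 0.04 log2. YUC8, the flavin monooxygenase that PIF4 turns on in the warm, had 11.05, 4.67 and 7.20 FPKM in the wild type and 8.43, 4.52 and 6.48 FPKM in bbx18 bbx23. It was lower in each pair with wide overlap, at -0.17 log2 with a 95% interval from -0.65 to 0.30 (adjusted p = 1). In pif4 it had 3.51, 3.43 and 4.58 FPKM, below every wild-type library.

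Of 15 auxin response genes tested, 0 were called and 2 had an unadjusted p under 0.05, both lower (all genes, 0.324%). IAA19, an auxin-induced repressor known as a target of PIF4, had 21.2, 21.0 and 19.6 FPKM in wild-type libraries at 29 °C, 16.2, 14.7 and 16.7 FPKM in bbx18 bbx23 and 6.76, 4.51 and 6.81 FPKM in pif4. The 3 genotypes formed separate ranges, with bbx18 bbx23 in between. Against the wild type the difference was -0.36 ± 0.16 log2 (SE, adjusted p = 1), with a 95% interval from -0.69 to -0.03, and against pif4 IAA19 was 1.28 ± 0.16 log2 higher (adjusted p = 0.00142). GH3.3, which joins auxin to amino acids, had 20.4, 12.7 and 10.3 FPKM in the wild type and 11.1, 6.78 and 11.2 FPKM in bbx18 bbx23, at -0.51 ± 0.23 log2 with overlap (SE, adjusted p = 1).

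Growth genes further downstream held no call either. The 17 SAUR genes tested, auxin-induced genes of cell expansion, had a median of -0.04 log2 and 0 calls. The 17 targets of PIF factors and PRE genes had a median of 0.03 with 0 calls. Of 18 genes of cell wall loosening, 0 were called, 5 were lower in 3 of 3 pairs (27.8%, all genes 9.74%) and 1 higher (5.56%, all genes 13.7%), and the median was -0.08 log2. XTH15, which remodels xyloglucan, was the lowest of them, with 117, 58.4 and 90.8 FPKM in the wild type and 61.0, 50.9 and 66.8 FPKM in bbx18 bbx23 (-0.52 ± 0.25 log2, SE, adjusted p = 1). Its groups overlapped.

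The comparison of bbx18 bbx23 with pif4 at 29 °C gave more calls than that with the wild type. There, 18 of 19116 genes were called (0.0942%), 13 higher in bbx18 bbx23 (0.068%) and 5 lower, or 27 with the block (0.141%). The comparisons share the bbx18 bbx23 libraries, so their values are given side by side only. Of the 13 higher genes, 10 had a mean difference below 0 against the wild type and 3 above it, where 55.5% of all genes were above 0. None of these 10 was called against the wild type.

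AT5G02540, which encodes a protein with an NAD(P)-binding fold, had 121, 91.6 and 129 FPKM in the wild type, 75.5, 61.7 and 110 FPKM in bbx18 bbx23 and 15.5, 9.87 and 18.6 FPKM in pif4. It was 2.41 ± 0.24 log2 higher in bbx18 bbx23 than in pif4 (SE, adjusted p = 1.27e-04), and -0.49 ± 0.24 log2 from the wild type (adjusted p = 1), lower in each pair with overlap. ST2A, a sulfotransferase that inactivates a jasmonate derivative and is known to rise with PIF4 activity, had 73.8, 29.0 and 37.0 FPKM in the wild type, 44.5, 22.8 and 32.2 FPKM in bbx18 bbx23 and 7.79, 7.00 and 5.43 FPKM in pif4. It stood 2.104 ± 0.29 log2 above pif4 (SE, adjusted p = 0.00388) and -0.42 ± 0.29 log2 from the wild type (adjusted p = 1). At 22 °C the order differed, with ST2A means of 3.04 FPKM in the wild type, 7.52 in bbx18 bbx23 and 3.63 in pif4. The ST2A difference from the wild type was -0.03 log2 without wild-type replicate 1. Leaving out other single libraries, it ran from -0.69 to -0.18 log2. Without replicate 1, 2 or 3 of both genotypes, it was -0.26, -0.46 or -0.53 log2.

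FAR1, a fatty acid reductase of suberin synthesis, had 40.3, 27.1 and 48.5 FPKM in the wild type, 29.0, 19.9 and 32.8 FPKM in bbx18 bbx23 and 9.92, 5.69 and 6.32 FPKM in pif4 (1.77 log2 above pif4, adjusted p = 0.00207). AT2G47780, annotated as a rubber elongation factor protein, had 12.01, 11.5 and 13.7 FPKM, 5.23, 6.34 and 8.26 FPKM, and 0.573, 2.83 and 2.13 FPKM in the same order. AT2G47780 formed separate ranges in the 3 genotypes, with bbx18 bbx23 1.496 log2 above pif4 (adjusted p = 0.0434) and -0.83 ± 0.27 log2 from the wild type (SE, adjusted p = 1). COR413IM1 likewise had 11.3, 13.9 and 13.6 FPKM in pif4, so that bbx18 bbx23 lay in between, 1.24 log2 above pif4 (adjusted p = 0.00744). AT5G44440, an oxidase of the berberine bridge enzyme family, was listed at 0 in all 3 pif4 libraries and had 1.89, 2.34 and 3.91 FPKM in bbx18 bbx23, against 2.05, 3.64 and 3.83 FPKM in the wild type, with overlap. FAR1 and AT2G47780 also overlap genes on the opposite strand, as do XTH15, BCAT4, LNK2, BOA, FER1 and AT4G32340 among the genes named elsewhere, so their values may hold reads of both strands.

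Of the 5 genes lower in bbx18 bbx23 than in pif4, the non-coding RNA AT2G01422 had the largest difference, at -3.71 log2 (adjusted p = 1.67e-08). It had 15.73, 12.9 and 17.84 FPKM in pif4 against 0.349, 0.064 and 0.364 FPKM in bbx18 bbx23. The wild type, at 0.542, 0 and 0.118 FPKM, was as low. AT2G05914 and UBC12, a ubiquitin-conjugating enzyme, were at or below 0.75 FPKM in every wild-type and bbx18 bbx23 library at 29 °C, and 2.77 to 4.79 FPKM in pif4. AT4G16146, given above, was the one of the 5 that was lower in bbx18 bbx23 than in both other genotypes without overlap and by more than 1 log2.

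**Figure D3:**
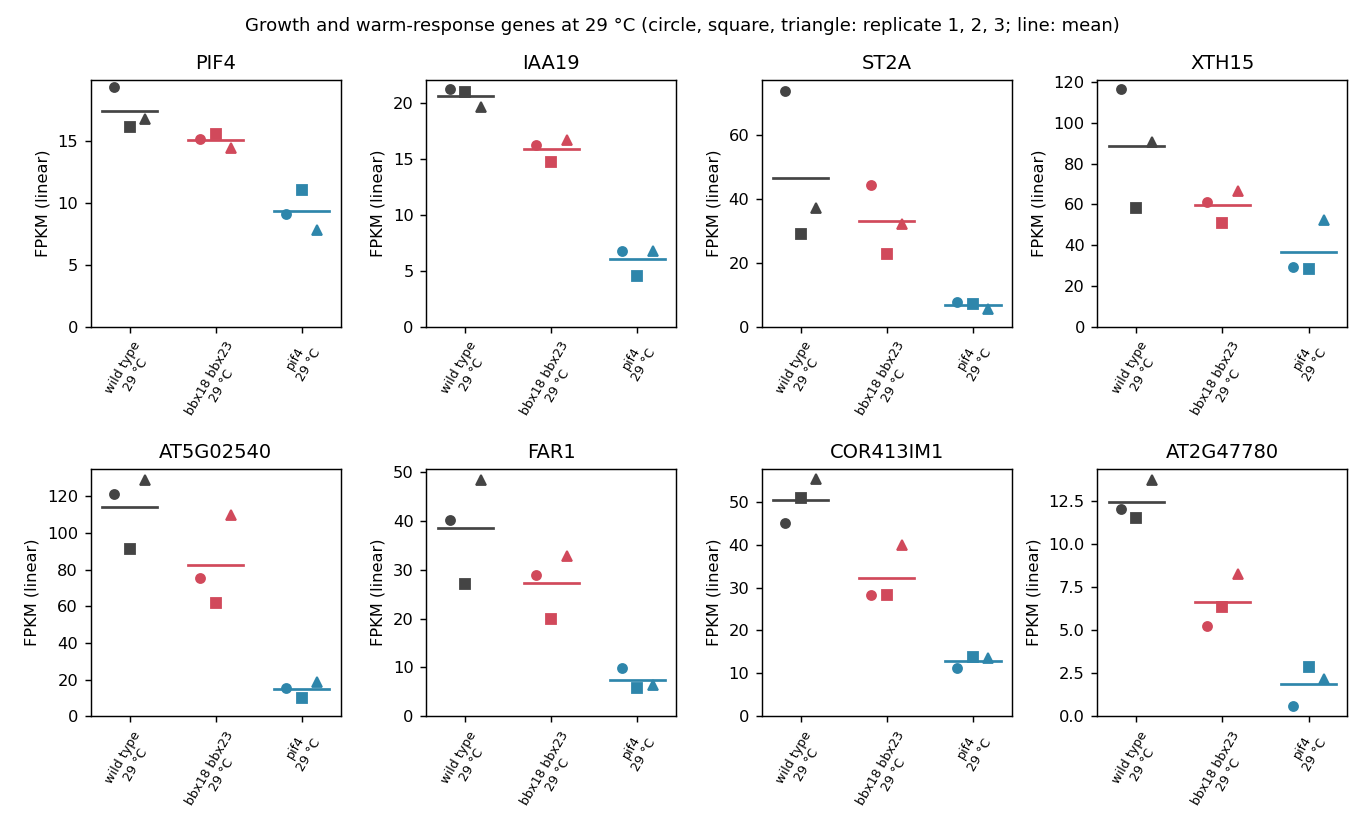
FPKM (linear axes from 0) of PIF4, IAA19, ST2A, XTH15, AT5G02540, FAR1, COR413IM1 and AT2G47780 in the 9 libraries at 29 °C, with a point per library shaped by replicate number and a line at the group mean. In each of these chosen panels the bbx18 bbx23 mean lies below the wild-type mean and above the pif4 mean. The bbx18 bbx23 differences from the wild type did not pass the test. PIF4 is the gene mutated in pif4, so its level there is not that of a downstream gene. Growth genes not shown can differ: XTH19 had means of 16.9 FPKM in the wild type, 18.7 in bbx18 bbx23 and 12.9 in pif4. PRE5 had 2.09, 2.37 and 0.927 FPKM in the same order.

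Genes that respond to warmth in pif4 seedlings are another group in which a change could appear. In pif4, 893 genes rose (limma, adjusted p under 0.05) from 22 °C to 29 °C and 1622 fell. The median difference between bbx18 bbx23 and the wild type at 29 °C was 0.015 log2 in both sets and 0.018 in all genes. Of the 893, 12.5% were higher and 13.7% lower in 3 of 3 pairs, and of the 1622, 16.5% were higher and 10.1% lower, beside 13.7% and 9.74% of all genes. The set of 893 held 1 of the 3 risen genes (0.112% of the set, where all genes had 0.0157%).

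Aliphatic glucosinolate genes, which make sulfur-rich defence compounds from methionine, gave the highest median of the 23 lists with at least 4 tested genes, at 0.32 log2, where all genes had 0.02. All 11 tested were positive, 9 were higher in 3 of 3 pairs (all genes, 13.7%) and 4 were higher without overlap (all genes, 2.8%). None was called, and 4 had an unadjusted p under 0.05 in the higher direction (all genes, 0.779%), or 6 with the block (all genes, 2.43%). The list medians of the 3 pairs were 0.25, 0.12 and 0.45 log2. At 22 °C the median was -0.00 log2, with 4 of 11 positive, and the difference between temperatures was called for 0 of the 11.

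MYB29, one of the transcription factors that turn the pathway on, had 0.746, 1.19 and 1.00 FPKM in wild-type libraries at 29 °C and 2.34, 1.95 and 1.95 FPKM in bbx18 bbx23. It showed no overlap, at 0.64 ± 0.18 log2 (SE, adjusted p = 1). Its partner MYB28 differed by 0.07 log2. BCAT4, the aminotransferase of the first step of methionine chain elongation, had 62.8, 74.2 and 64.0 FPKM against 89.8, 101 and 90.3 FPKM (0.48 ± 0.20 log2, SE, adjusted p = 1), again without overlap. The chain-elongating synthases MAM1 and MAM3 lay at 0.33 and 0.44 log2, both without overlap. For MAM1 the wild type had 48.6, 47.2 and 41.1 FPKM and bbx18 bbx23 60.6, 51.6 and 61.1 FPKM. The pif4 libraries lay above the wild type too, with 2.34, 2.64 and 2.29 FPKM of MYB29 and 67.9, 55.0 and 63.9 FPKM of MAM1.

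**Figure D4:**
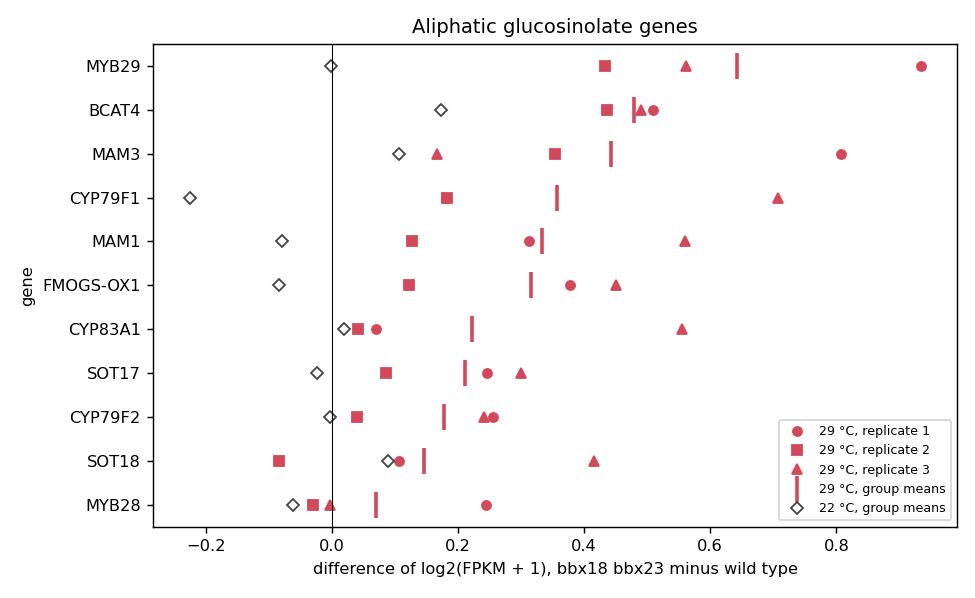
Difference of log2(FPKM + 1), bbx18 bbx23 minus wild type, of 11 aliphatic glucosinolate genes: red shapes are the same-number pairs at 29 °C, red bars the group means at 29 °C, open diamonds the group means at 22 °C. All 11 red bars lie right of 0, the diamonds lie on both sides, and none of the genes passed the test.

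Other B-box genes did not pass either. Of 27 tested, 6 were higher and 6 lower in 3 of 3 pairs (22.2% each, all genes 13.7% and 9.74%), with a median of -0.03 log2. With the block, 3 had an unadjusted p under 0.05 in the higher direction (11.1%, all genes 2.43%) and 0 in the lower (all genes 1.12%). BBX16 had 1.33, 22.3 and 8.58 FPKM in the wild type and 3.53, 36.3 and 16.5 FPKM in bbx18 bbx23. It was the higher member of each pair, but the replicates of 1 genotype lay much further apart than the genotypes (0.84 ± 0.85 log2, SE, adjusted p = 1). With the block its SE was 0.18 log2, and it did not pass (adjusted p = 0.623). BBX31 had the same shape, spanning 0.562 to 122.8 FPKM in wild-type libraries and 2.07 to 160 FPKM in bbx18 bbx23 (0.80 ± 1.52 log2, SE, adjusted p = 1). It too was higher in each pair, with an SE of 0.18 log2 with the block (adjusted p = 0.685).

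Clock genes were mixed, with 0 of 24 called, 5 higher and 6 lower in 3 of 3 pairs (20.8% and 25.0%, all genes 13.7% and 9.74%), and a median of -0.03 log2. The morning gene LHY had 88.2, 152 and 138 FPKM in the wild type and 120, 188 and 176 FPKM in bbx18 bbx23, and its co-activator LNK2 had 33.9, 55.1 and 72.7 FPKM against 63.6, 82.8 and 78.9 FPKM. Both were higher in each pair with overlap, at 0.36 and 0.53 log2. BOA, a relative of the evening complex member LUX, had 20.5, 20.6 and 18.5 FPKM against 15.6, 15.8 and 16.5 FPKM, lower without overlap at -0.30 ± 0.11 log2 (SE, adjusted p = 1). PRR5, an evening repressor, was at -0.34 log2.

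Over all 26 lists, 0 of 325 tested genes were called, with or without the block. Positive differences made up 55.5% of all genes. Iron deficiency genes had a median of 0.28 log2 with 10 of 11 positive, but their medians in the pairs of replicates 1, 2 and 3 were 0.39, -0.15 and 0.27 log2, so the second pair went the other way. FER1, an iron store that is high when iron is ample, was at -0.33 log2. Salicylic acid defence genes had 12 of 13 positive and a median of 0.18 log2, with pair medians of -0.33, 0.11 and 0.71 log2, lower in the first pair and highest in the third. PR1 had the highest difference of them, at 10.4, 2.05 and 2.999 FPKM in the wild type against 21.7, 12.5 and 4.36 FPKM (1.19 ± 0.59 log2, SE, adjusted p = 1). Heat shock genes had a median of 0.02 in 25 tested, photosynthesis genes -0.07 in 23, jasmonate genes -0.01 in 13, gibberellin genes -0.11 in 8 and brassinosteroid genes -0.10 in 8. Root markers were all positive, 8 of 8, with a median of 0.13 log2, pair medians of 0.41, -0.20 and 0.17 log2, and 0 separated without overlap (all genes, 2.8% higher). Their summed level was 1532 to 2091 FPKM in wild-type and 1765 to 1940 FPKM in bbx18 bbx23 libraries, and its part in the other results was not tested. The 7 reference genes lay between -0.18 and 0.08 log2.

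**Figure D5:**
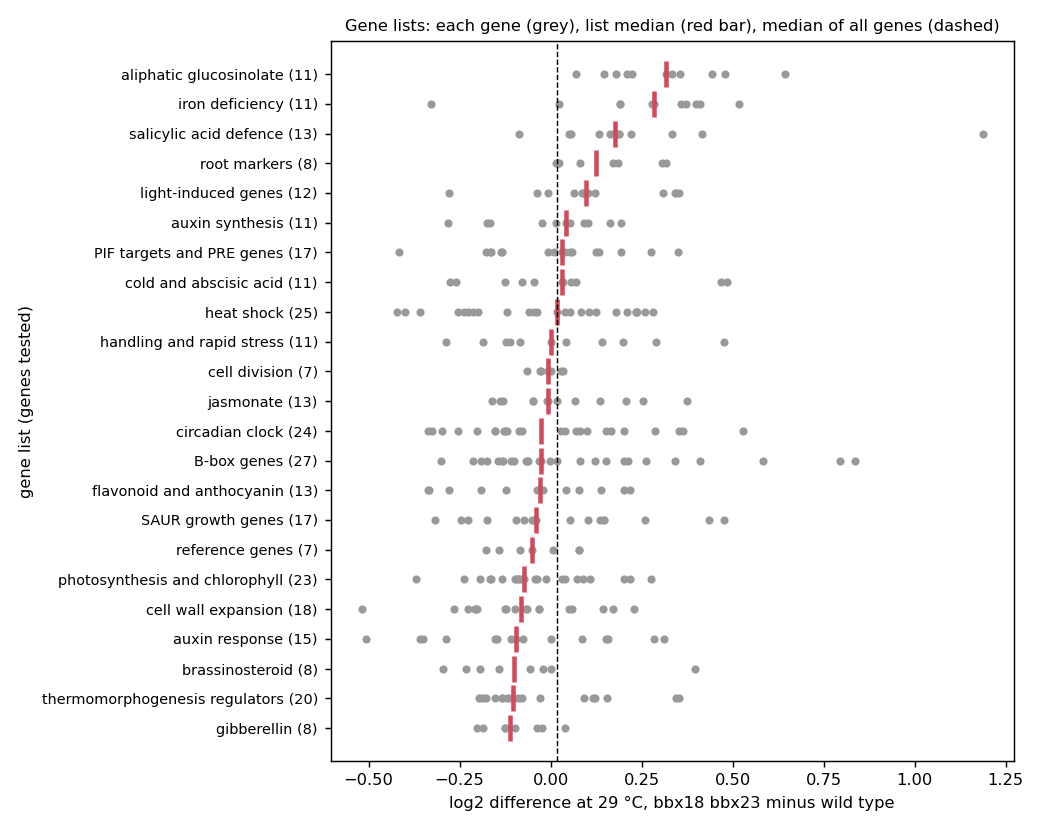
Difference at 29 °C, bbx18 bbx23 minus wild type, of the tested genes of 23 lists: grey dots are genes, red bars the list medians, and the dashed line the median of all 19116 genes. List medians run from -0.11 (gibberellin) to 0.32 log2 (aliphatic glucosinolate), and no list gene passed the test.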

How the data were processed

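Per the labels' protocols, Trizol was used to extract total RNA and a TruSeq kit to prepare libraries. The authors deposited FPKM per gene, 1 column per library, with 0 columns lacking a sample. The submitters' processing notes name Bowtie 0.12.2 and mm8. As mm8 denotes mouse while the loci belong to Arabidopsis, neither the true genome nor the counting tool is known here. Names, neighbours, overlaps and copies came from TAIR10.1 (32835 of 33602 identifiers found; blastn 2.17.0). Numbers of reads are not part of the table.

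On log2(FPKM + 1), 19116 genes were fitted with limma 3.58.1 in R 4.3.3: 6 groups, all 18 libraries, a variance trend, 2-sided moderated tests and Benjamini-Hochberg adjustment at 0.05 per contrast. FPKM are not counts, so no count test was run. The second fit added a replicate block within temperature. Labels do not state a pairing, so numbers were taken to pair libraries where each same-number correlation of deviations from group means exceeded 0.1. These were 0.70, 0.73 and 0.24 at 29 °C, and 0.13, -0.06 and 0.56 at 22 °C. The rule was not met at 22 °C, yet the block fit paired the libraries by number there too. Its spread estimates and its test between temperatures use that pairing.

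The members and the 26 gene lists were chosen with earlier results of these data known. Named genes were the targeted genes, up to 15 called genes per direction by fold change, with a mean of at least 2 FPKM in the higher group. Where fewer than 10 passed, genes of smallest p in the block fit with 1 sign in 3 of 3 pairs were added. Up to 4 genes per list and 5 per direction against pif4 were also named. Alternatives were another pseudocount, filter, scaling, variance trend, block or set of libraries. The method was also run on simulated data. The simulated libraries varied independently, so that run does not cover libraries that deviate together by replicate number.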

Additional observations from a re-analysis of the deposited data

How the results depend on the processing

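The number of genes called between bbx18 bbx23 and the wild type at 29 °C, 3 in the fit reported, was 0 with only those 6 libraries in the fit, 4 with a replicate block within temperature, 3 with a replicate block over all libraries, and 5 with a replicate block in only the 6 libraries (AT4G37483, AT2G41640, TH8, AT3G56210 and AT4G04223). Leaving out libraries gave 0 to 4 calls, with 0 both without replicate 1 and without replicate 2 of both genotypes. Without a filter on low values AT1G64010 also passed, lower at -0.46 log2. At 22 °C, 5 calls became 1 with only the groups compared and 1 to 4 with a library left out. Against pif4, 18 became 1 with only the groups compared and 12 to 16 with a library left out. The difference between temperatures gave 0 calls under each alternative run. Beyond AT3G56210, the block within temperature changed no call among the genes named for the comparison with the wild type at 29 °C. The block in only the 6 libraries also added TH8 and lost ARP9.

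Of 879 values of 49 named genes under 18 alternatives, 842 kept sign and side of the threshold, 14 lost a call, 7 gained one and 16 changed sign, each of these 16 without 1 library. Leaving out 1 library gives the groups unlike sets of replicate numbers. Over the fits with libraries left out, the log2 difference ran from -0.057 to 1.67 for BBX16, -0.99 to 0.45 for BBX18, -0.84 to 2.34 for BBX31, -0.55 to 0.083 for EXPA8, -0.18 to 0.94 for HY5, -0.20 to 0.78 for HYH, -0.44 to 1.19 for SIG5, -0.44 to 0.10 for YUC8 and -0.67 to 0.085 for YUC9. Within these, BBX18 was 0.33, BBX31 -0.52, EXPA8 0.01, HY5 -0.11, HYH -0.01, SIG5 -0.42 and YUC8 0.03 in another fit of changed sign. The median of the aliphatic glucosinolate genes, an alternative added after it was seen, stayed above 0, from 0.18 without replicate 3 of both genotypes to 0.41 without replicate 2. With 3 libraries per group, differences near the median SE of 0.178 log2 were not detectable, and much larger ones also went uncalled. AT4G16146 at -1.02 ± 0.19 log2 (SE) and AT2G13550 at 0.93 ± 0.17 log2 (SE) did not pass. The smallest difference called in the fit reported was 1.21 log2, so smaller changes may have been missed.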
